A study of Arabidopsis thaliana with 4 samples.

Results

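WRKY proteins are plant transcription factors, and the 56 Arabidopsis thaliana WRKY genes described here were chosen by locus, from WRKY1 to WRKY75 with the numbers that the list holds. All 56 were among the 33977 gene rows of the count files, and 54 passed the filter on low counts. RNA was sequenced from 2 single plants that over-express PPD3 in the Col-0 background, labelled PPD3_OE, and from 2 single plants of Col-0, the usual laboratory wild type. PPD3 is a member of the PsbP-domain family of chloroplast lumen proteins. All 4 plants grew on peat mix at 22 °C under 16 h days and were frozen at bolting, with no other treatment named. The labels give neither the promoter that drives PPD3 nor whether both PPD3_OE plants descend from the same transformed line. One label calls the tissue the rosette and another speaks of entire plants.

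Gene counts ranged from 33771093 to 40727172 per plant. The transcript taken as PPD3 (AT1G76450, a name given from general knowledge and not by the reference) had 113628 and 111903 counts in PPD3_OE plants 1 and 2, against 3800 and 2460 in Col-0 plants 1 and 2. Markers of other tissues were summed in CPM, counts scaled to a common library size after TMM scaling, a correction for library composition. The 7 root markers summed to 0.524 and 0.175 CPM in PPD3_OE and to 0.0812 and 0.258 CPM in Col-0, and 4 or 5 of them had no count in a given plant. The 6 floral bud markers summed to 20.2 and 13.6 CPM in PPD3_OE and to 12.4 and 6.38 CPM in Col-0. The 6 markers of secondary walls, which form in stems, summed to 60.3 and 67.8 CPM in PPD3_OE and to 64.2 and 156 CPM in Col-0. The 6 leaf markers summed to 23601 and 26902 CPM in PPD3_OE and to 21683 and 16395 CPM in Col-0. Their part in the WRKY values was not tested, and in whole tissue fewer cells of a type cannot be told apart from less RNA per cell.

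WRKY proteins bind the W box, a DNA element built around the core TTGAC, and many WRKY genes carry W boxes themselves and are controlled by other members of the family. Some members, WRKY53 and WRKY75 among them, promote leaf senescence, the ordered dismantling of old leaves. Others act in defence against microbes, where MAP kinases and VQ proteins modify or bind them, and several are induced within minutes by touch, wounding or microbial elicitors. Upstream sequence is shown for the 3 members of the senescence and defence sets with the most W-box cores, since TTGAC is the element that the family itself binds. Each window runs from 250 bases before to 50 bases after the annotated start of the gene in TAIR10.1, read 5′ to 3′ on the gene's strand from the RefSeq genome, and capitals mark TTGAC or its reverse complement GTCAA. WRKY45 (chr3:327363-327662, minus strand) holds 3 cores, WRKY33 (chr2:16107985-16108284, plus strand) holds 2 and WRKY53 (chr4:12393933-12394232, minus strand) holds 2.
WRKY45: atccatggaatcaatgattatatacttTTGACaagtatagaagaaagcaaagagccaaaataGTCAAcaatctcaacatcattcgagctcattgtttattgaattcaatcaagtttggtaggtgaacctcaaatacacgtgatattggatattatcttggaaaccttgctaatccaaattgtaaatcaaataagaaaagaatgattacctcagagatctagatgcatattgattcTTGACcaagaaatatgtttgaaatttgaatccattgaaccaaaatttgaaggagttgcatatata
WRKY33: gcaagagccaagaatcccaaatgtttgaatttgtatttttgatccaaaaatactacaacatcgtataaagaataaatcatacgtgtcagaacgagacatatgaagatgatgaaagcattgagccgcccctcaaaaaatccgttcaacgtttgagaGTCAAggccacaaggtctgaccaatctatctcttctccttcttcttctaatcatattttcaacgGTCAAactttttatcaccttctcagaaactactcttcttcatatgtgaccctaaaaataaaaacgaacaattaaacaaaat
WRKY53: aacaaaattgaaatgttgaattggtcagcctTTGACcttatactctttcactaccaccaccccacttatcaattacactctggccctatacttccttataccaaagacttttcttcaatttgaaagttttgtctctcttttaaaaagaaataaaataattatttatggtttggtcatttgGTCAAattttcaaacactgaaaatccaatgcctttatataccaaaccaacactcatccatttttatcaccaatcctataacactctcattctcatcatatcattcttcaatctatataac
In WRKY45 the cores begin at positions -223, -188 and -15 from the start, in WRKY33 at -95 and -31, and in WRKY53 at -219 and -70. Over the listed members 35 of 56 windows held at least 1 core on either strand (62.5%), against 50.5% of 27443 protein-coding windows of the same length. At least 2 cores stood in 17 of the 56 (30.4%), against 17.7% of all windows. The longer forms TTGACC and TTGACT, which overlap the core, were found on either strand in 22 members (39.3%) and in 32.4% of all windows. A match describes the letters in the window and is not a binding site.

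More WRKY genes were lower in PPD3_OE than higher. In 26 of the 54 tested members both PPD3_OE plants lay below both Col-0 plants, and in 2 members, WRKY29 and WRKY32, both lay above. Among all 19919 genes tested these shares were even, 33% lower and 33.9% higher, while of the tested members 48.1% were lower. The median log2 fold change of the members (PPD3_OE over Col-0, from edgeR) was -0.44, against 0.01 over all genes tested, and 40 of 54 values were negative. With each plant left out in turn the members' median ran from -0.73 without PPD3_OE plant 1 to -0.13 without Col-0 plant 2. DESeq2, 1 of 2 count tests run, placed 12 members lower and 0 higher at an adjusted p of 0.05, or 22.2% of those tested, where it called 10.2% of all genes lower and 8.87% higher. The other test, edgeR's quasi-likelihood F test, called 0 members, with a smallest adjusted p of 0.0623. At 0.05 it did not call the transcript taken as PPD3 either, which was 35.2-fold higher in PPD3_OE (edgeR adjusted p = 0.0623). That test called 0.00502% of all genes, which is 1 gene, and 16 of the members had an unadjusted p under 0.05, against 33.1% of all genes. At an adjusted p of 0.10 edgeR called 13 members lower and 0 higher, the 12 of DESeq2 and WRKY57, where it called 11.2% of all genes lower and 9.56% higher. The DESeq2 count depended on single plants. It was 1 without Col-0 plant 2, 6 without PPD3_OE plant 2, 11 without PPD3_OE plant 1 and 17 without Col-0 plant 1, and WRKY26 was the member called in all 4 of these fits.

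**Figure D1:**
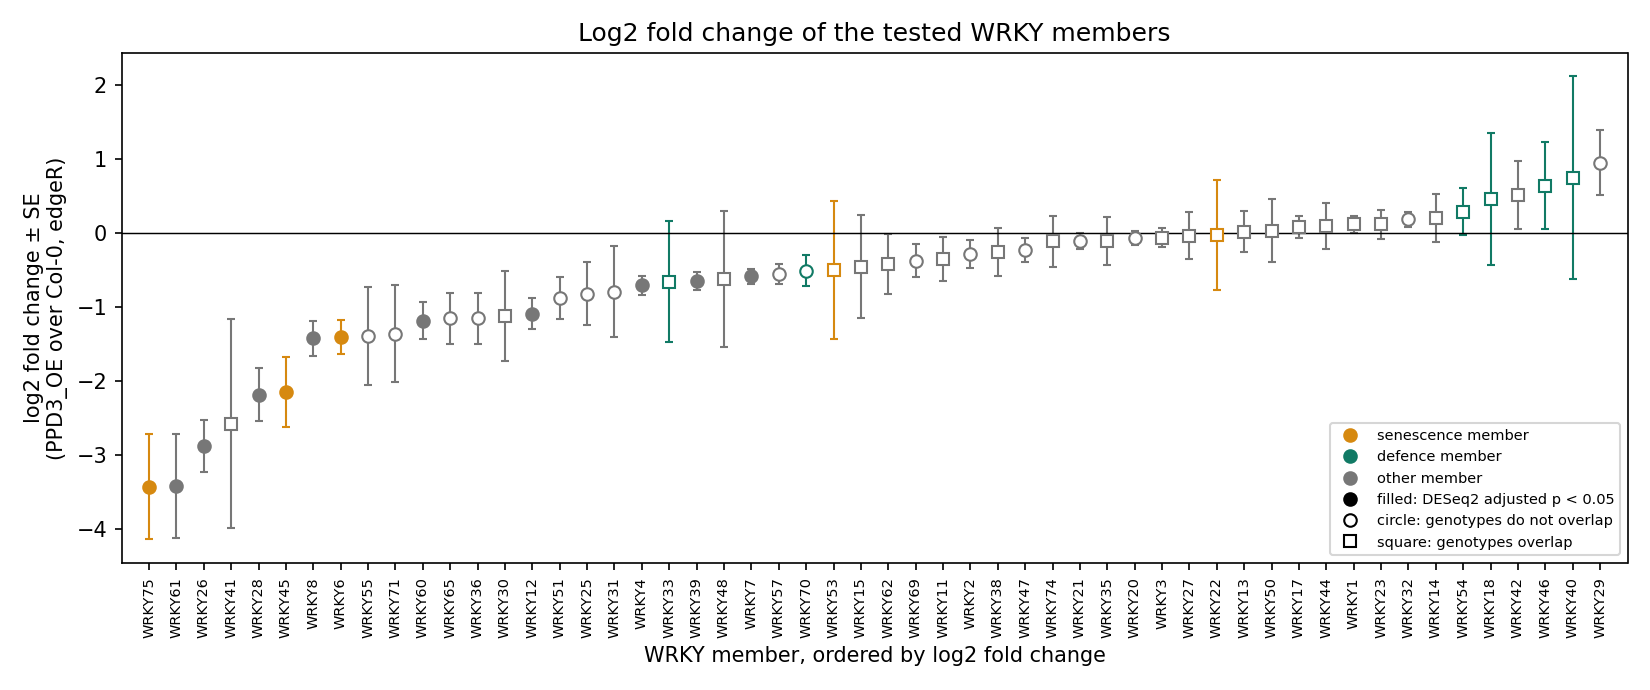
Log2 fold change of each of the 54 tested WRKY members (vertical axis, PPD3_OE over Col-0, edgeR, bars are SE), ordered from lowest to highest, with colour for the senescence, defence and other members, filled symbols for a DESeq2 adjusted p under 0.05, circles where the genotypes do not overlap and squares where they do. The 12 filled symbols are all below 0, and WRKY40, WRKY18 and WRKY53 carry wide error bars.

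Of the 5 senescence members, WRKY6, WRKY45 and WRKY75 were lower in both PPD3_OE plants than in both Col-0 plants, while WRKY22 and WRKY53 overlapped. WRKY75 (AT5G13080, on chromosome 5), which promotes leaf senescence and is also induced by phosphate starvation, stood at 0.998 and 0.292 CPM in PPD3_OE plants 1 and 2 and at 4.41 and 9.74 CPM in Col-0 plants 1 and 2. These are 40 and 10 counts in PPD3_OE against 163 and 339 in Col-0, a 10.97-fold lower mean level (log2 fold change -3.42 ± 0.71, DESeq2 adjusted p = 2.56e-05, edgeR adjusted p = 0.0721). Even the higher PPD3_OE plant was well under the lower Col-0 plant. Its close homologue WRKY45 (AT3G01970, chromosome 3), also a promoter of senescence, had 1.62 and 1.43 CPM in PPD3_OE and 4.06 and 9.51 CPM in Col-0. The mean was 4.44-fold lower (log2 fold change -2.15 ± 0.47, DESeq2 adjusted p = 6.75e-04, edgeR adjusted p = 0.0759). In both genes Col-0 plant 2 was the highest of the 4 plants.

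WRKY6 (AT1G62300, chromosome 1), a regulator of senescence and of phosphate export, had 12.8 and 8.43 CPM in PPD3_OE and 27.2 and 29.0 CPM in Col-0. The Col-0 plants were close to each other, and the mean was 2.65-fold lower in PPD3_OE (log2 fold change -1.40 ± 0.23, DESeq2 adjusted p = 3.77e-05, edgeR adjusted p = 0.0632). WRKY53 (AT4G23810, chromosome 4), an early activator of leaf senescence, did not separate the genotypes. It was at 88.9 and 16.6 CPM in PPD3_OE and at 38.01 and 111 CPM in Col-0, so that PPD3_OE plant 1 was above Col-0 plant 1 and PPD3_OE plant 2 was the lowest (log2 fold change -0.50 ± 0.94, DESeq2 adjusted p = 0.827, edgeR adjusted p = 0.735). The annotation places AT4G23800 on the opposite strand across WRKY53, at a mean of 73.0 CPM in PPD3_OE and 35.2 CPM in Col-0, and without strand the count of WRKY53 is uncertain. WRKY22 (AT4G01250, chromosome 4), which acts in dark-induced senescence and downstream of flagellin perception, was at 20.1 and 5.02 CPM in PPD3_OE and at 8.44 and 17.3 CPM in Col-0 (log2 fold change -0.03 ± 0.74, edgeR adjusted p = 0.982). Its order of plants was that of WRKY53 in PPD3_OE and in Col-0.

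None of the 6 defence members passed either test. WRKY40 (AT1G80840, chromosome 1), a repressor of basal defence and of abscisic acid responses, ranged over 195 and 10.2 CPM in PPD3_OE and 30.9 and 91.3 CPM in Col-0. Both the highest and the lowest of the 4 plants were PPD3_OE plants (log2 fold change 0.75 ± 1.37, edgeR adjusted p = 0.728). WRKY18 (AT4G31800, chromosome 4), which forms complexes with WRKY40, was at 147 and 27.5 CPM in PPD3_OE and at 38.01 and 89.3 CPM in Col-0 (log2 fold change 0.46 ± 0.89, edgeR adjusted p = 0.743). WRKY33 (AT2G38470, chromosome 2), which switches on camalexin synthesis, was at 264 and 54.5 CPM in PPD3_OE and at 169 and 332 CPM in Col-0 (log2 fold change -0.65 ± 0.82, edgeR adjusted p = 0.605). WRKY46 (AT2G46400, chromosome 2), a salicylic acid-responsive member, was at 55.0 and 22.2 CPM in PPD3_OE and at 15.5 and 34.2 CPM in Col-0 (log2 fold change 0.64 ± 0.59, edgeR adjusted p = 0.484). In these 4 genes PPD3_OE plant 1 stood above plant 2, Col-0 plant 2 stood above plant 1, and the genotypes overlapped.

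WRKY54 and WRKY70, paired repressors of senescence that also act in salicylic acid signalling, did not follow that order. WRKY70 (AT3G56400, chromosome 3) was at 239 and 221 CPM in PPD3_OE and at 381 and 272 CPM in Col-0. It was lower in both PPD3_OE plants without passing a test (log2 fold change -0.51 ± 0.21, DESeq2 adjusted p = 0.115, edgeR adjusted p = 0.178). WRKY54 (AT2G40750, chromosome 2) was at 65.7 and 101 CPM in PPD3_OE and at 83.0 and 53.7 CPM in Col-0 (log2 fold change 0.29 ± 0.32, edgeR adjusted p = 0.554). Its genotypes overlapped, with the higher plant being plant 2 in PPD3_OE and plant 1 in Col-0, the reverse of WRKY40. Per kilobase of annotated exon, WRKY70 was the most abundant member in both genotypes, at a mean of 156 CPM per kilobase in PPD3_OE and 222 in Col-0, and WRKY33 followed at 78.6 in PPD3_OE and 124 in Col-0.

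Set against each other, the senescence members had a median log2 fold change of -1.40 and the defence members one of 0.37. DESeq2 placed 3 of 5 senescence members lower and 0 of 6 defence members in either direction. The share over all genes was 10.2% lower and 8.87% higher. Both PPD3_OE plants lay below both Col-0 plants in 3 of the 5 and in 1 of the 6, against 33% of all genes tested, and counts over so few genes are a description only. The senescence median ranged from -2.16 to -1.13 when each plant was left out in turn, and was -0.52 with a filter of 5 CPM, which kept WRKY6, WRKY22 and WRKY53 and left out WRKY45 and WRKY75. The defence median changed sign: it was -0.88 without PPD3_OE plant 1 and 0.61 without PPD3_OE plant 2, and -0.08 with limma, which averages log values. The difference between the sets was not tested, since the members were chosen with results known.

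**Figure D2:**
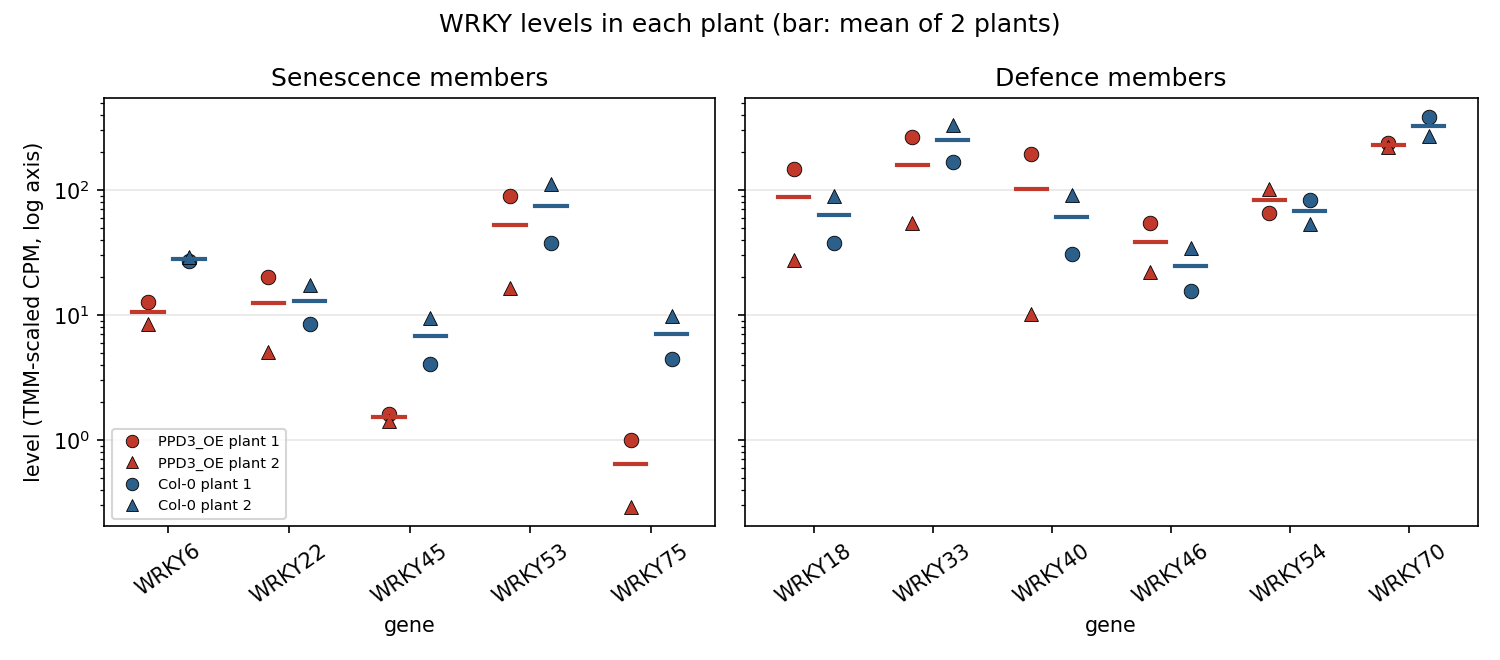
Level of the 5 senescence members (left) and the 6 defence members (right) in each plant, in TMM-scaled CPM on a log axis, with PPD3_OE left of Col-0 for each gene, circles for plant 1, triangles for plant 2 and a bar at the mean of 2 plants. WRKY6, WRKY45 and WRKY75 on the left and WRKY70 on the right separate the genotypes. In WRKY18, WRKY22, WRKY33, WRKY40, WRKY46, WRKY53 and WRKY54 the PPD3_OE plants lie on both sides of at least 1 Col-0 plant.

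Differences between plants of the same genotype were large in part of the family. In PPD3_OE, 13 members were more than 2-fold higher in plant 1 than in plant 2, and 1, WRKY42, was more than 2-fold higher in plant 2. In Col-0, 14 members were more than 2-fold higher in plant 2 and 0 in plant 1. Over all 19919 genes tested, 1094 were more than 2-fold higher in PPD3_OE plant 1 and 296 in PPD3_OE plant 2. Between the Col-0 plants, 640 of these genes were more than 2-fold higher in plant 2 and 203 in plant 1. The ratio of PPD3_OE plant 1 to plant 2 was 19.1 for WRKY40, 5.36 for WRKY18, 5.36 for WRKY53 and 4.84 for WRKY33. The ratio of Col-0 plant 2 to plant 1 was 2.96 for WRKY40, 2.35 for WRKY18, 2.93 for WRKY53 and 1.97 for WRKY33. Across the 54 members the log2 difference in PPD3_OE (plant 1 minus 2) and that in Col-0 (plant 2 minus 1) had a Pearson correlation of 0.58 and a Spearman correlation of 0.52, a description over genes that share these 4 libraries. Of all 54 tested members, 44 were higher in Col-0 plant 2. All 13 members that were over 2-fold higher in PPD3_OE plant 1 were among these 44. Those 13 include WRKY15, a calmodulin-binding member, WRKY48, a repressor of basal resistance, WRKY25, a heat and salt tolerance factor, and WRKY41.

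Touch and wound genes had the same order of plants. Of 15 such genes, the calmodulin-like TCH2, TCH3 and CML genes, the cell wall enzyme gene TCH4, ERF and ZAT factors, SZF1 and JAZ repressors, all 15 were higher in PPD3_OE plant 1 than in plant 2, and 14 more than 2-fold. In Col-0, 14 of the 15 were higher in plant 2. The summed level of the list was 2213 and 341 CPM in PPD3_OE plants 1 and 2 and 810 and 1495 CPM in Col-0 plants 1 and 2. JAZ7, a jasmonate signalling repressor, was at 81.7 and 0.613 CPM in PPD3_OE and at 6.49 and 17.7 CPM in Col-0. The list's median log2 difference was 2.87 between the PPD3_OE plants and 1.00 between the Col-0 plants, against 1.79 and 1.06 for the defence WRKY members and 1.60 and 1.13 for the senescence members. Handling, harvest order and time of day are not given in the labels, and the part of the touch state in the WRKY values was not tested.

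**Figure D3:**
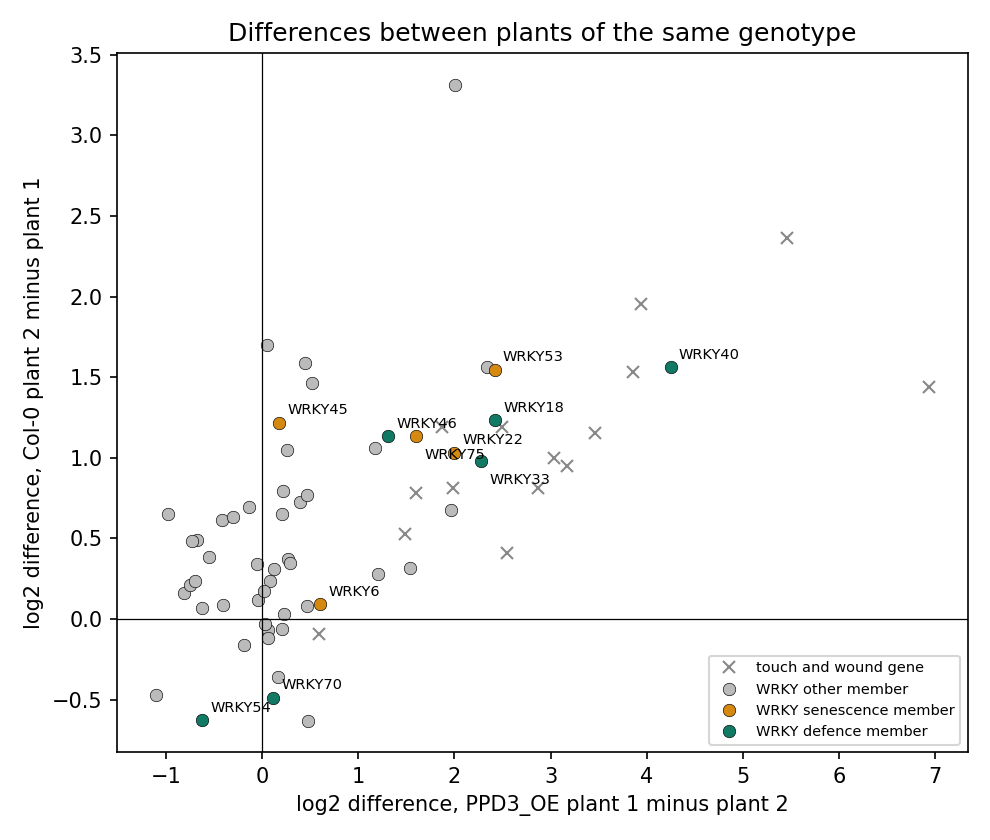
Log2 difference between PPD3_OE plant 1 and plant 2 (horizontal axis) against the log2 difference between Col-0 plant 2 and plant 1 (vertical axis), for the 54 WRKY members (circles, senescence and defence members coloured and named) and the 15 touch and wound genes (crosses). WRKY40, WRKY18, WRKY53 and WRKY33 lie among the touch and wound genes at the upper right, and WRKY54 and WRKY70 lie below 0 on the vertical axis; WRKY6 lies close to ERF104, the touch gene with the smallest difference between the PPD3_OE plants.

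Outside the senescence and defence sets, 9 more members were placed lower by DESeq2. WRKY26 (AT5G07100), which acts with WRKY25 and WRKY33 in heat tolerance, was at 4.99 and 3.59 CPM in PPD3_OE and at 23.3 and 39.7 CPM in Col-0. It was 7.34-fold lower with wide separation (log2 fold change -2.87 ± 0.35, DESeq2 adjusted p = 2.46e-12, edgeR adjusted p = 0.0623). Its relative WRKY25 was at 52.96 and 22.9 CPM in PPD3_OE and at 60.3 and 73.2 CPM in Col-0, again lower in both PPD3_OE plants, and passed neither test (log2 fold change -0.81 ± 0.43, DESeq2 adjusted p = 0.173, edgeR adjusted p = 0.256). WRKY28 (AT4G18170), an activator of the salicylic acid synthesis gene ICS1, was at 1.12 and 0.963 CPM in PPD3_OE and at 3.46 and 6.03 CPM in Col-0, 4.55-fold lower (DESeq2 adjusted p = 7.52e-05, edgeR adjusted p = 0.0632). WRKY8 (AT5G46350), a close relative that acts in virus defence and salt tolerance, was at 1.95 and 1.60 CPM in PPD3_OE and at 4.14 and 5.37 CPM in Col-0 (log2 fold change -1.42 ± 0.24, DESeq2 adjusted p = 0.00126, edgeR adjusted p = 0.0637). For both, the PPD3_OE plants were nearly level and below either Col-0 plant.

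WRKY61 (AT1G18860) was close to the counting limit in PPD3_OE, with 8 and 2 counts against 34 and 69 in Col-0. Those are 0.200 and 0.0583 CPM in PPD3_OE and 0.920 and 1.98 CPM in Col-0 (log2 fold change -3.41 ± 0.70, DESeq2 adjusted p = 0.00208, edgeR adjusted p = 0.0720). WRKY60 (AT2G25000), the third member of the small clade with WRKY18 and WRKY40, was at 5.47 and 8.49 CPM in PPD3_OE and at 15.4 and 16.1 CPM in Col-0. The mean was 2.26-fold lower (DESeq2 adjusted p = 0.00144, edgeR adjusted p = 0.0720), and its higher PPD3_OE plant was plant 2, where for WRKY18 and WRKY40 it was plant 1. WRKY12 (AT2G44745), which represses secondary wall formation in the stem pith and promotes flowering, was at 2.67 and 3.56 CPM in PPD3_OE and at 6.41 and 6.81 CPM in Col-0 (log2 fold change -1.09 ± 0.21, DESeq2 adjusted p = 0.00367, edgeR adjusted p = 0.0675). WRKY12 had 237 counts in each Col-0 plant, so that its slightly higher level in Col-0 plant 2 rests on scaling. All 6 secondary wall markers had negative log2 fold changes, and in Col-0 all 6 were higher in plant 2, by a median log2 difference of 1.21. The genotypes did not overlap in 2 of the 6 (33.3%), about the share of all genes tested that lay lower without overlap (33%). Both were regulators of fibre wall formation. SND1 had 0 and 0 counts in PPD3_OE and 24 and 56 in Col-0. NST1 had 17 and 26 counts in PPD3_OE and 50 and 75 in Col-0. The other 4 overlapped, and the part of stem tissue in the WRKY12 value was not tested.

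The remaining calls were small and even. WRKY4 (AT1G13960), which acts in resistance to necrotrophic fungi, was at 20.1 and 19.0 CPM in PPD3_OE and at 29.3 and 34.4 CPM in Col-0, 1.63-fold lower (DESeq2 adjusted p = 0.00355, edgeR adjusted p = 0.0652), while its close homologue WRKY3 overlapped (log2 fold change -0.06 ± 0.13). WRKY7 (AT4G24240), a calmodulin-binding repressor of bacterial resistance, was at 19.2 and 18.4 CPM in PPD3_OE and at 28.9 and 27.6 CPM in Col-0 (log2 fold change -0.58 ± 0.10, DESeq2 adjusted p = 0.00565, edgeR adjusted p = 0.0638). WRKY39 (AT3G04670), a calmodulin-binding member that acts in heat tolerance, was at 22.9 and 19.6 CPM in PPD3_OE and at 32.95 and 33.7 CPM in Col-0 (1.57-fold lower, DESeq2 adjusted p = 0.00633, edgeR adjusted p = 0.0667). In all 3 calls the gap between genotypes was wider than the gap between plants. WRKY57 (AT1G69310), a repressor of jasmonate-induced senescence, was at 7.79 and 7.67 CPM in PPD3_OE and at 10.7 and 12.0 CPM in Col-0, and was called by edgeR at 0.10 alone (edgeR adjusted p = 0.0854, DESeq2 adjusted p = 0.0562).

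Several other members with separate genotypes passed neither test. WRKY55 (AT2G40740) lies 919 bases from WRKY54 on the other strand of chromosome 2 and had 23 and 14 counts in PPD3_OE and 23 and 69 in Col-0 (log2 fold change -1.39 ± 0.66, edgeR adjusted p = 0.219). WRKY71 (AT1G29860), a promoter of shoot branching and flowering, had 16 and 9 counts in PPD3_OE and 16 and 45 in Col-0 (log2 fold change -1.36 ± 0.66, edgeR adjusted p = 0.227). In both genes the raw counts of the 2 plants numbered 1 were equal, and the separation there rests on scaling. WRKY65 (AT1G29280) had 28 and 40 counts in PPD3_OE and 70 and 78 in Col-0 (log2 fold change -1.15 ± 0.34, edgeR adjusted p = 0.106). On the higher side, WRKY29 (AT4G23550), a target of the flagellin-activated MAP kinase cascade, was at 1.72 and 1.43 CPM in PPD3_OE and at 0.514 and 1.12 CPM in Col-0 (log2 fold change 0.95 ± 0.44, edgeR adjusted p = 0.211). WRKY32 (AT4G30935) was at 19.7 and 20.3 CPM in PPD3_OE and at 16.9 and 18.3 CPM in Col-0 (log2 fold change 0.19 ± 0.11, edgeR adjusted p = 0.284). Neither of these higher members passed a test, and the 2 members left out by the filter, WRKY9 and WRKY72, had at most 14 counts in any plant.

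The family is divided into structural groups, assigned here from general knowledge and not from sequences. The DESeq2 calls were 5 of 12 tested members of group IIc, 2 of 6 in IIb, 2 of 7 in IId, 1 of 3 in IIa and 2 of 10 in group I, with 0 of 7 in IIe and 0 of 9 in group III. In groups of 3 to 12 tested members these counts are a description only, beside the 10.2% of all genes placed lower. The median log2 fold change was -0.98 in group IIc and -0.97 in IIb, against -0.03 in IIe and -0.17 in group I. Group III, which holds WRKY53, WRKY54 and WRKY70, had a median of -0.50 and overlapping genotypes in 7 of 9 members. The genotypes overlapped in 26 of all 54 tested members and in 6583 of the 19919 genes tested. Members with overlapping genotypes and small values include WRKY1 (0.12 ± 0.12), WRKY17 (0.08 ± 0.15) and the trichome regulator TTG2, which is WRKY44 (0.09 ± 0.31), all on the log2 scale. WRKY20 (-0.07 ± 0.10) and WRKY21 (-0.11 ± 0.10) were nearly level, although their plants separated by narrow margins. An antisense or overlapping gene model crosses 11 of the 56 members, among them WRKY4, WRKY29, WRKY33, WRKY40, WRKY53 and WRKY61, whose counts are less certain for that reason. The length of these overlaps was not measured. The models across WRKY29 and WRKY61 themselves had means of 0.0374 CPM or less in either genotype.

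Proteins that act on WRKY factors were read from the same fits. Of 18 VQ proteins, small partners that bind WRKY domains, 11 were tested, 10 had negative values and the list median on the log2 scale was -0.46. Both PPD3_OE plants lay below both Col-0 plants in 7 of the 11 (63.6%, against 33% of all genes tested), and DESeq2 called 0 of the 11, where it placed 10.2% of all genes lower and 8.87% higher. The seed size regulator IKU1 had the smallest p on the lower side, at 12.4 and 13.9 CPM in PPD3_OE and 18.6 and 17.5 CPM in Col-0 (edgeR adjusted p = 0.0904, DESeq2 adjusted p = 0.0751). On the higher side it was CAMBP25 (log2 fold change 0.54 ± 0.69, edgeR adjusted p = 0.611). Of 11 MAP kinase cascade genes 0 passed DESeq2, with a median of 0.06. MPK3, which phosphorylates WRKY33, was at 296 and 144 CPM in PPD3_OE and at 282 and 351 CPM in Col-0, while MPK6 was at 50.4 CPM on average in PPD3_OE and 60.4 CPM in Col-0 (log2 fold change -0.26 ± 0.10, 0 of 2 tests passed). MKK4 was the highest-ranked kinase on the other side (log2 fold change 0.27 ± 0.15, edgeR adjusted p = 0.274). Of 12 regulators of salicylic acid signalling 1 was lower in DESeq2, the receptor NPR4, at 42.8 and 44.7 CPM in PPD3_OE and 73.3 and 59.1 CPM in Col-0 (DESeq2 adjusted p = 0.0166, edgeR adjusted p = 0.0839). ICS1, a reported target of WRKY28 and WRKY46, was at 24.2 and 20.4 CPM in PPD3_OE and 22.9 and 38.8 CPM in Col-0 (DESeq2 adjusted p = 0.338), and NIMIN1 had the smallest p among those with positive values (log2 fold change 0.41 ± 0.43, edgeR adjusted p = 0.540).

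Reported targets of WRKY factors were lower in PPD3_OE in many cases. Of 10 defence targets, 7 were lower in DESeq2 and 0 higher, where it placed 10.2% of all genes lower and 8.87% higher. The list median on the log2 scale was -1.67. The list was chosen with earlier results of these data known, and its count is a description only. The camalexin enzymes PAD3 and CYP71A13, which WRKY33 activates, separated the genotypes although WRKY33 did not. PAD3 was at 8.21 and 8.63 CPM in PPD3_OE and at 15.5 and 36.6 CPM in Col-0 (log2 fold change -1.63 ± 0.44, DESeq2 adjusted p = 0.00314, edgeR adjusted p = 0.0944). CYP71A13 was at 2.87 and 1.84 CPM in PPD3_OE and at 7.68 and 7.84 CPM in Col-0 (log2 fold change -1.72 ± 0.26, DESeq2 adjusted p = 2.73e-05, edgeR adjusted p = 0.0623). PAD3 was thus level between the PPD3_OE plants, in which WRKY33 differed 4.84-fold. The ethylene synthesis gene ACS2, another WRKY33 target, was at 0.449 and 0.379 CPM in PPD3_OE and 1.51 and 3.13 CPM in Col-0 (DESeq2 adjusted p = 0.00134, edgeR adjusted p = 0.0672). ACS6, also among the defence targets, was at 81.3 and 20.4 CPM in PPD3_OE and 38.3 and 75.9 CPM in Col-0 (log2 fold change -0.17 ± 0.74). Its genotypes overlapped, with the higher plant of each genotype the same as for WRKY33. Whether these genes followed WRKY33 was not tested. PR4 had the smallest p of the list, at 76.3 and 57.6 CPM in PPD3_OE and 326 and 411 CPM in Col-0 (DESeq2 adjusted p = 2.75e-20, edgeR adjusted p = 0.0623).

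Of 12 senescence targets and markers 11 were tested, 8 were lower in DESeq2 and 0 higher, and the median log2 fold change was -1.57. SAG12, the protease gene that WRKY53, WRKY45 and WRKY75 are reported to bind, had 1 and 0 counts in PPD3_OE and 179 and 7 in Col-0, and was left out by the filter. Its level in Col-0 came almost wholly from plant 1, the Col-0 plant with less WRKY53, WRKY45 and WRKY75. Whether SAG12 followed these members was not tested. SAG13 had the smallest p among the lower genes, at 8.74 and 7.001 CPM in PPD3_OE and 78.5 and 52.4 CPM in Col-0 (DESeq2 adjusted p = 4.31e-22, edgeR adjusted p = 0.0623), and ESP, whose protein interacts with WRKY53, had the smallest p among those with positive values (log2 fold change 0.51 ± 0.20, edgeR adjusted p = 0.168). SAG113, a phosphatase gene of senescing leaves, was at 2.12 and 1.84 CPM in PPD3_OE and 12.1 and 20.2 CPM in Col-0 (DESeq2 adjusted p = 9.37e-14, edgeR adjusted p = 0.0623). In SAG113 as in WRKY45, the PPD3_OE plants were close together and Col-0 plant 2 was highest. The lists were written with earlier results of these data known, so their counts are a description only. DESeq2 placed 10.2% of all genes lower and 8.87% higher.

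**Figure D4:**
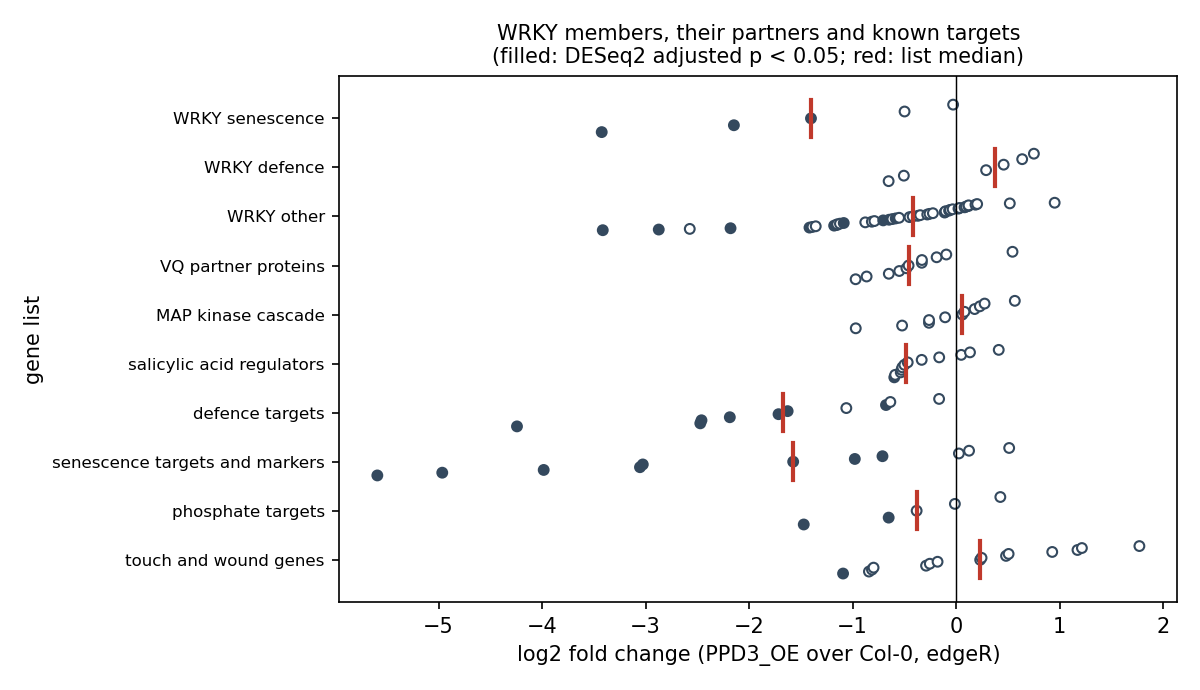
Log2 fold change (horizontal axis, PPD3_OE over Col-0, edgeR) of each tested gene in the WRKY senescence, defence and other members and in 7 lists of partners, regulators, targets and touch genes (rows), filled where the DESeq2 adjusted p is under 0.05, with the list median as a red bar. The median is -1.40 for the senescence members, -1.67 for defence targets and -1.57 for senescence targets, against 0.37 for the defence members and 0.06 for the MAP kinase cascade.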

How the data were processed

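The authors deposited 1 table of raw counts for each of 4 plants, with a row per gene and no normalization. Per the labels' protocols, libraries came from a TruSeq kit that does not mark strand and were read as 150-base single reads. The submitters' processing notes name TAIR10 and DESeq2, while no source used here names the aligner or the counting tool. The 5 rows that name no gene were left out; reads with several alignments were 4.18% to 5.61% of reads and ambiguous ones 3.67% to 4.18%. Depth was 33771093 to 40727172 gene counts per plant, so that plant spread, not counting, limits all but the lowest members.

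Counts of all genes were fitted with edgeR 4.0.16 in R 4.3.3 (default filter with a minimum count of 10 and total of 15, TMM, quasi-likelihood F test, Benjamini-Hochberg adjustment over 19919 genes, 0.05), and the same genes with DESeq2 1.42.0 (Wald test). limma 3.58.1 with voom was an alternative. The fit had 2 residual degrees of freedom and a prior of 2.36. The SE is the log2 fold change divided by the root of F, and log2 CPM of single plants used a prior count of 2. Both tests were run on simulated counts with the same fixed spread between plants for every gene. The spread seen between these plants was not simulated, so that run cannot show how the tests perform on them. Sequences, exon lengths and gene starts came from the RefSeq genome and annotation of TAIR10.1, matched by locus (32548 of 33977 rows), and no coordinates of the files were used. Members named with every plant's value were the senescence and defence sets and up to 8 others per direction by fold change among those that did not overlap; from each list the member with the smallest p per direction was named, and other genes were named after their values were seen. A rule naming 2 promoters gave 3, since 2 genes tied. Protein sequences were not used here. The members, the role sets and the 11 gene lists were chosen with earlier results of these data known.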

Additional observations from a re-analysis of the deposited data

How the results depend on the processing

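Over all genes edgeR called 1 gene. It called 13 with no filter, 0 with a filter of 5 CPM, 0 with the replicate block, 137 with the crossed replicate block (added after the data were seen, since same-numbered plants deviated in opposite directions, correlation -0.30), 0 with limma, 4129 at an adjusted p of 0.10 and 0 without any 1 plant, and DESeq2 called 3792. Members called by edgeR, 0 at 0.05, were 2 with the crossed block and 13 at 0.10. The DESeq2 count of 12 was 7 with the replicate block and ran from 1 to 17 with plants left out. Members with lower, separate genotypes, 26, were 27 to 40 with plants left out. Separation is easier for any gene with fewer plants, so this rise is no sign of stability. The count was 15 with the 5 CPM filter, which kept 32 members, and the share of all genes is given for the main fit only. The senescence median was -0.52 with that filter. The defence median was -0.051 with the replicate block, -0.038 with the crossed block, -0.077 with limma and -0.88 to 0.61 with plants left out; the cause was not tested. The numbers are not said to pair the plants. Fits without a plant assume that the lone plant varies like the others.

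Of 1065 values for single genes, 973 kept sign and call, 52 changed sign (in 28 genes) and 40 were newly called, 31 of them by DESeq2 and 9 with the crossed block. WRKY13 was -0.027 by library size and -0.0012 unfiltered. WRKY50 was -0.016 by library size, -0.00032 with the 5 CPM filter, -0.010 with the replicate block, -0.0095 crossed and -0.031 with limma. WRKY40 was -0.23, -0.21 and -0.26 with the replicate block, the crossed block and limma, and JAZ7 -0.22 and -0.41 with the replicate block and limma. With plants left out in turn, log2 fold changes ran as follows: WRKY3 -0.16 to 0.034, WRKY11 -0.69 to 0.046, WRKY13 -0.30 to 0.37, WRKY14 -0.27 to 0.56, WRKY15 -1.74 to 0.22, WRKY17 -0.11 to 0.24, WRKY18 -1.21 to 1.21, WRKY22 -1.36 to 0.65, WRKY23 -0.067 to 0.28, WRKY27 -0.46 to 0.30, WRKY33 -2.20 to 0.078, WRKY35 -0.41 to 0.16, WRKY38 -0.64 to 0.051, WRKY40 -2.58 to 1.73, WRKY41 -4.52 to 0.11, WRKY42 -0.15 to 0.98, WRKY44 -0.20 to 0.42, WRKY46 -0.16 to 1.30, WRKY48 -2.24 to 0.36, WRKY50 -0.54 to 0.45, WRKY53 -2.16 to 0.47, WRKY54 -0.056 to 0.61, WRKY74 -0.46 to 0.28, CAMBP25 -0.40 to 1.40, NIMIN1 -0.34 to 0.91, TCH2 -0.38 to 1.60, PHO1 -0.14 to 0.075, JAZ7 -4.29 to 2.76.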

Other observations

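Several members also act in phosphate nutrition, WRKY6, WRKY42, WRKY45 and WRKY75 among them, and 8 phosphate genes were read beside them. PHO1, the phosphate exporter that WRKY6 and WRKY42 repress, was at 24.0 and 26.7 CPM in PPD3_OE and at 23.8 and 27.4 CPM in Col-0, and did not pass (edgeR adjusted p = 0.955). The phosphate starvation marker PAP17 was at 12.2 and 18.6 CPM in PPD3_OE and at 39.4 and 46.01 CPM in Col-0 (DESeq2 adjusted p = 8.92e-06, edgeR adjusted p = 0.0632). PHO2, which limits phosphate uptake, was at 138 and 154 CPM in PPD3_OE and at 205 and 253 CPM in Col-0 (DESeq2 adjusted p = 0.00838, edgeR adjusted p = 0.0869). PHT1;4 had the smallest p on the higher side (log2 fold change 0.43 ± 0.27, edgeR adjusted p = 0.330). WRKY42 itself had 66 and 124 counts in PPD3_OE and 79 and 53 in Col-0, and its genotypes overlapped. Of the 5 phosphate genes tested, 2 were lower in DESeq2 and 0 higher, where it placed 10.2% of all genes lower and 8.87% higher. The list was chosen with earlier results of these data known, and its count is a description only.

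In the touch and wound list of 15 genes, ERF104 was the 1 gene whose genotypes did not overlap. Over all genes tested, 33% lay lower and 33.9% higher without overlap. ERF104 was at 40.4 and 26.8 CPM in PPD3_OE and 74.0 and 69.3 CPM in Col-0 (DESeq2 adjusted p = 9.50e-04, edgeR adjusted p = 0.0720). In the same list TCH2 had the smallest p among those with positive values (log2 fold change 0.93 ± 0.72, edgeR adjusted p = 0.409). Among tissue markers, the floral gene AG was at 3.17 and 1.63 CPM in PPD3_OE and 1.38 and 0.862 CPM in Col-0. Of 6 leaf genes DESeq2 placed CA1 higher (log2 fold change 1.17 ± 0.45, DESeq2 adjusted p = 0.0290) and LHCA1 lower (log2 fold change -0.37 ± 0.19, DESeq2 adjusted p = 0.0265), and edgeR called neither. Over all genes DESeq2 placed 10.2% lower and 8.87% higher, and calls among so few genes are a description only.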
